A study of Mus musculus with 6 samples.

Results

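Ephrins, semaphorins, Slits and netrins, with their Eph, plexin, Robo and Unc5 receptors, were examined in satellite cells, which serve muscle as its stem cells. Cells of control mice were compared with cells of mice carrying a conditional knockout of the histone chaperone gene Hira. All protein-coding genes of GENCODE M21 whose symbols belong to these 8 families were taken, with no filter on measured values. The families themselves were chosen with earlier results of these data known. This gave 66 of the 55536 annotated genes: 35 ligands (8 ephrins, 20 semaphorins, 3 Slits and 4 netrins) and 31 receptors (14 Eph receptors, 9 plexins, 4 Robos and 4 Unc5 receptors). Enough counts for a test were found for 61 of them, while Epha5, Epha6, Epha8, Sema5b and Unc5d were too low, with 0 to 12 counts in any sample.

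These genes encode short-range and long-range cues that attract or repel growing axons and migrating cells. Ephrins are anchored in the membrane of a neighbouring cell and are bound by Eph receptor tyrosine kinases. Semaphorins act through plexins (the secreted class 3 mostly together with a neuropilin). Slits repel cells through Robo receptors, and netrins act through Dcc, neogenin and Unc5 receptors. Besides nerve wiring, the same families shape blood vessels, and in muscle they are known for contacts between satellite cells and fibres and for signals from muscle cells to the motor nerve terminal.

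The 3 control samples came from Pax7CreErt2;Hira fl/+ mice and the 3 conditional knockout (cKO) samples from Pax7CreErt2;Hira fl/fl mice, adult males on the C57BL/6J background. The sample labels give the controls as WT. Both groups therefore carried the tamoxifen-dependent Cre recombinase expressed from Pax7, which acts in satellite cells, and the controls kept 1 Hira allele that cannot be deleted. Mice of both groups were given tamoxifen in the diet and a BaCl2 injury of the tibialis anterior muscle. Satellite cells were sorted 5 days post-injury as CD34+ ITGA7+ cells negative for CD45, TER119 and SCA1, then cultured for 48 h in high-serum medium with basic FGF. The samples are described as independent RNA samples, and the text does not say whether each is a separate mouse, so the p-values measure only the spread between these samples.

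Between 47944477 and 63323577 reads were counted on genes in each sample. Hira itself had 375, 348 and 341 counts in control replicates 1, 2 and 3 and 161, 293 and 272 counts in cKO replicates 1, 2 and 3. Its log2 change was -0.43 ± 0.12 (SE, adjusted p = 0.0237, edgeR). Without control replicate 1 it was -0.34 (adjusted p = 0.104, within a range of 2.93e-05 to 0.104 over all alternatives). Another gene on its strand is annotated over 44.7% of the exon bases of Hira. Satellite cell and myoblast markers were abundant in both groups, with a summed level of 7980 to 8083 CPM (counts per 1000000 counted reads) in control and 7115 to 7570 CPM in cKO. Of 10 tested markers, 9 were lower in cKO. Summed levels of other cell types were higher in every cKO sample for macrophages (146 to 151 CPM in control, 310 to 362 in cKO, 15 of 15 markers upregulated), endothelial cells (23.8 to 25.6 and 34.3 to 41.7 CPM, 6 of 14) and fibroblasts (1217 to 1301 and 1624 to 1804 CPM, 7 of 10). So was the sum for pericytes and smooth muscle (3251 to 3310 and 3530 to 3669 CPM, 5 of 7, with 2 downregulated). Most of that sum was Acta2, at a mean of 2929 CPM in control and 3180 CPM in cKO. Most of the fibroblast sum was Col1a2 (mean 586 CPM in control and 714 in cKO) and Col3a1 (393 and 462 CPM). Of 7 neuron markers only Stmn2 could be tested, and it was upregulated (mean 1.59 and 2.65 CPM). It made up most of the neuron sum (1.63 to 2.02 and 2.58 to 3.38 CPM). The other neuron markers had 0 to 15 counts in any sample. For Schwann cells the sum went from 248 to 256 CPM in control to 235 to 242 CPM in cKO, with 1 of 8 markers upregulated and 1 downregulated. No marker was at 0 in all samples. Of the genes used to exclude cells in the sort, Ptprc, which encodes CD45, had counts of 72, 94 and 94 in the controls and 126, 169 and 167 in the cKO samples (log2 change 0.96, adjusted p = 5.22e-05, edgeR). Ly6a, which encodes SCA1, had 178, 198 and 175 against 183, 200 and 211 (0.24, adjusted p = 0.115). Because these are bulk samples, fewer cells of a type and less RNA per cell cannot be told apart. The part of these other cell types in the results that follow was not tested.

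Of the 61 tested genes, 13 (21.3%) were upregulated and 5 (8.2%) were downregulated in cKO with edgeR's quasi-likelihood test (adjusted p below 0.05). Without cKO replicate 2, 9 genes were downregulated, and without control replicate 3, 3 were. Over all 22404 genes tested, 15.8% were called, 9.38% upregulated and 6.46% downregulated, and among protein-coding genes 12.8% and 8.5%. Of the 31 guidance genes with a mean of at least 10 CPM, 7 (22.6%) were upregulated and 4 (12.9%) downregulated, against 11.5% and 12.3% of protein-coding genes at that level. The share of upregulated guidance genes was above the background and the share of downregulated ones close to it, with no test of this difference. The upregulated genes were the ligands Slit2, Slit3, Ntn4, Efnb1, Efnb2, Sema3b, Sema3c, Sema4d and Sema5a and the receptors Unc5b, Unc5c, Robo2 and Plxnb2. Downregulated were the ligands Efna1 and Sema3d and the receptors Ephb2, Ephb3 and Plxna2. The CPM of the groups did not overlap for 25 of the 61 genes (41.0%; 19 above and 6 below), beside 31.4% of all genes tested (20.3% above and 11.1% below). The median log2 change of the tested guidance genes was 0.05, beside -0.0011 over all genes, and the median of its size regardless of sign was 0.15, beside 0.10. Slit2, Slit3 and Unc5c were the only members with a change above 1. Each called gene had at least 62 counts in every sample. The calls were the same 18 under other scalings of the libraries (RLE, upper-quartile and total counts alone). Of the 18, 11 were kept whichever of the 6 samples was left out: Slit2, Slit3, Unc5b, Unc5c, Efnb2, Sema3c, Sema4d, Ntn4, Sema3d, Plxna2 and Ephb3.

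**Figure D1:**
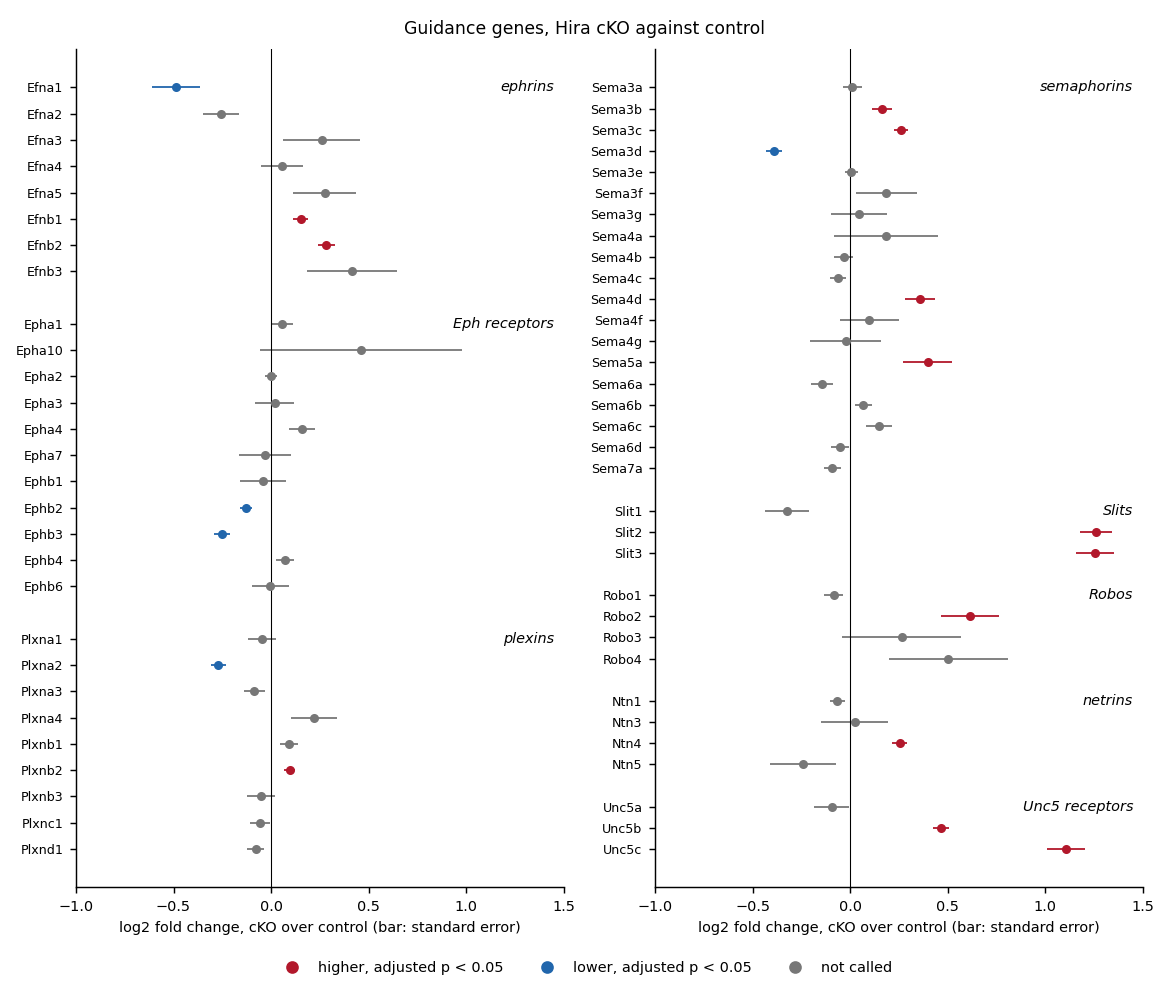
Log2 fold change of cKO over control (x axis) for the 61 tested guidance genes, grouped by family, with bars for the standard error. Slit2, Slit3 and Unc5c stand alone above 1, while the 5 downregulated genes lie between -0.49 and -0.13.

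**Figure D2:**
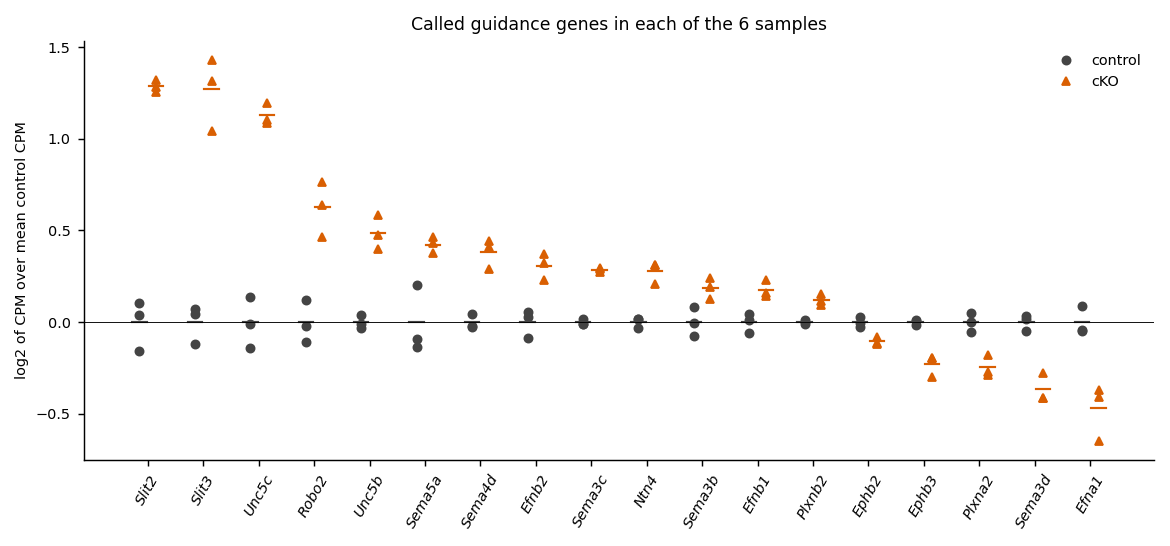
Log2 of the CPM in each sample over the mean control CPM (y axis) for the 18 called guidance genes, with 3 control circles and 3 cKO triangles per gene and dashes for the group means. For all 18 genes the control and cKO samples do not overlap, and the separation of Plxnb2 and Ephb2 is small beside that of Slit2 and Slit3.

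The promoter sequences of 3 called genes are shown so that members that moved in either direction can be compared by sequence. Shown are the upregulated Unc5b and Efnb2 and the downregulated Sema3d. Their calls were kept whichever sample was left out, they have a single RefSeq promoter, and at least 150 bases of it lie before every start annotated nearby in GENCODE or RefSeq. The run of Sema3d ends at the RefSeq start, 224 bases before the GENCODE start given for the gene further on. They are RefSeq sequences of build GRCm38.p6, 5′ to 3′ on the strand of the gene, with each CpG dinucleotide in capitals.
Unc5b, chr10:60831582-60831831, minus strand: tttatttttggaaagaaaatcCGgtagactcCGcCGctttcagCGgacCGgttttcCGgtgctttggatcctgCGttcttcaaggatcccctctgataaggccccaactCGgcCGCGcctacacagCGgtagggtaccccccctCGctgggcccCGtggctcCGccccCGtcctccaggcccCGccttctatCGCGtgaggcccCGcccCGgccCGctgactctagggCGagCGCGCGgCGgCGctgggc
Efnb2, chr8:8661243-8661492, minus strand: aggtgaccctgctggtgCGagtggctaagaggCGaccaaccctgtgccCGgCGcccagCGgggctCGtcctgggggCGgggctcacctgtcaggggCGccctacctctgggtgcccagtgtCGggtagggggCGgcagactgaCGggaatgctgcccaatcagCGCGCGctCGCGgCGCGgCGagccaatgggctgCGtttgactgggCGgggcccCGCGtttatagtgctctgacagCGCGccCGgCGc
Sema3d, chr5:12382916-12383160, plus strand: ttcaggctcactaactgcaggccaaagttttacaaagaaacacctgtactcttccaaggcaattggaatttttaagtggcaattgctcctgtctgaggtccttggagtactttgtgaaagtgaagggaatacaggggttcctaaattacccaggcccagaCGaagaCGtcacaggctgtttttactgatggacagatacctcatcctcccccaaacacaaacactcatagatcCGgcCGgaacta
These runs hold 27 CpG in 250 bases for Unc5b, 27 in 250 bases for Efnb2 and 4 in 245 bases for Sema3d. Promoter windows of 300 bases (250 before and 50 after the start) were found for 57 of the 66 genes, 73 windows in all. Their median was 19 CpG, against 7 over all 32851 promoters and 13 over those of protein-coding genes. The medians were 23 CpG for the 17 windows of upregulated genes, 21.5 for the 6 windows of downregulated genes and 17 for the 46 windows of genes tested and not called. The ranges of the 3 sets overlap (2 to 42, 8 to 25 and 2 to 38). The E-box CAGCTG, a palindrome that reads the same on both strands and one form of the site bound by MYOD, occurs in 12 of the 73 windows (16.4%), against 16.3% of all promoters.

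Among the Slits, Slit2 and Slit3 were upregulated in cKO and Slit1 was not called. Slit2 (ENSMUSG00000031558, chromosome 5, 47983138 to 48307733 of mm10), a secreted ligand that repels axons and migrating cells, had counts of 188, 220 and 178 in the controls and 370, 465 and 450 in the cKO samples. Its log2 change was 1.26 ± 0.08 (SE, adjusted p = 4.84e-08, edgeR), a 2.40-fold higher level. Slit3 (ENSMUSG00000056427, chromosome 11, 35121224 to 35708507), which is also known from the diaphragm and from vessels, had counts of 198, 226 and 192 in the controls and 336, 542 and 473 in the cKO samples. Slit3 rose by 1.25 ± 0.10 on the log2 scale (SE, adjusted p = 3.59e-07, edgeR). For both genes each cKO sample lay far above every control sample, and cKO replicate 1 was the lowest of the 3 for Slit3. Slit1, the member best known from the nervous system, had counts of 158, 168 and 155 in the controls and 107, 117 and 127 in the cKO samples, with all cKO samples lower in CPM than all control samples. Its log2 change of -0.32 ± 0.11 (SE) did not pass the test (adjusted p = 0.0638, edgeR). It did pass with edgeR's likelihood-ratio test (adjusted p = 0.0341, range over all alternatives 0.0341 to 0.22). The makeup of Slit RNA differed between the groups: per kb of the longest coding transcript, Slit1 held 31.2% to 33.4% of Slit reads in the control samples and 12.1% to 15.7% in the cKO samples. Slit3 went from 44.8% to 45.5% to 53.4% to 60.6% and Slit2 from 21.8% to 23.3% to 27.3% to 30.9%. The direction of these 3 shifts was the same per kb of all annotated exons, but the order of Slit1 and Slit2 in the cKO samples depended on which length was used. Of the marker sums given above, those of macrophages, endothelial cells, fibroblasts, pericytes with smooth muscle, and neurons were higher in the same samples. Those of satellite cells with myoblasts and of Schwann cells were lower. A link of these sums to the Slit genes was not tested.

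**Figure D3:**
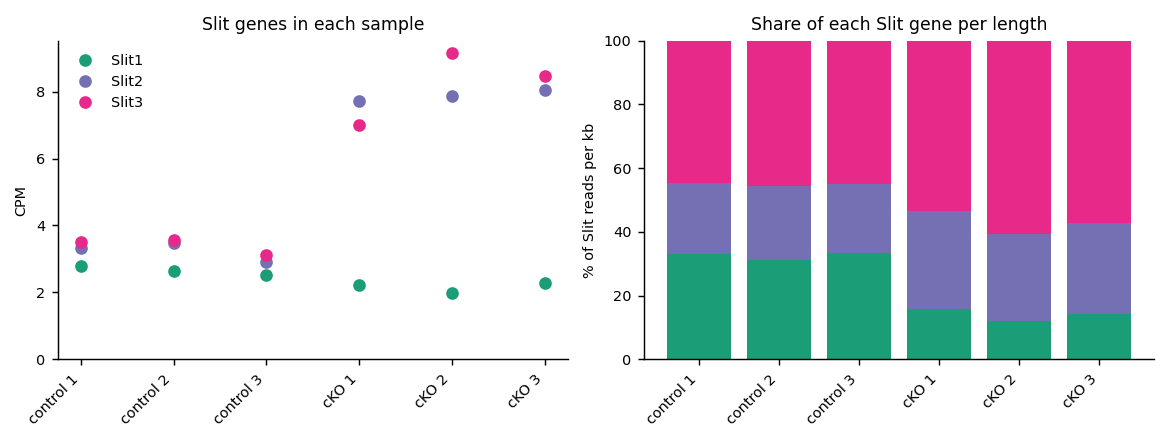
Left, CPM (y axis) of the 3 Slit genes in each of the 6 samples. Right, share of each gene in the Slit reads per kb of the longest coding transcript (percent, y axis); Slit1 takes 31.2% to 33.4% in the control samples and 12.1% to 15.7% in the cKO samples.

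Robo receptors were dominated by Robo1 in both groups, and of the 4 only the rare Robo2 was called. Robo1, a transmembrane Slit receptor, had counts of 4635, 5142 and 4933 in the controls and 3415, 5080 and 4253 in the cKO samples, a log2 change of -0.09 ± 0.05 (SE, adjusted p = 0.298, edgeR). Its groups overlapped. Of the Robo reads per kb of the longest coding transcript, Robo1 held 97.9% to 98.0% in the controls and 96.5% to 97.0% in the cKO samples. Without cKO replicate 2, its log2 change was -0.16 with an adjusted p of 0.00683 (edgeR, range over all alternatives 0.00683 to 0.707), so this sample decides whether Robo1 is called. Robo2, a related Slit receptor, had counts of 65, 62 and 64 in the controls and 70, 106 and 92 in the cKO samples. Robo2 rose by 0.61 ± 0.15 on the log2 scale (SE, adjusted p = 0.00966, edgeR) with no overlap in CPM. Without control replicate 2 the adjusted p was 0.0508, within a range of 0.000701 to 0.0508 over all alternatives. Robo3, known from axons that cross the midline, had counts of 11, 14 and 16 in the controls and 15, 17 and 13 in the cKO samples. Robo4, known from endothelial cells, had 17, 23 and 11 against 24, 23 and 19. Neither was called (log2 changes of 0.26 and 0.50 with standard errors of 0.31 each), and at 11 to 24 counts a change of that size was not detectable.

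The netrins were led by Ntn4, the only one of the 4 that was called. Ntn4, a netrin related to laminins and found in basement membranes, had counts of 2522, 2924 and 2841 in the controls and 2528, 3348 and 3166 in the cKO samples. Ntn4 rose by 0.25 ± 0.04 on the log2 scale (SE, adjusted p = 0.000283, edgeR). The raw counts of the groups overlap, and after scaling to library size they do not, with a mean CPM of 45.7 ± 0.94 in the controls against 55.4 ± 2.27 in the cKO samples (SD, n = 3). Ntn1, the classical chemoattractant, had counts of 2062, 2309 and 2219 in the controls and 1628, 2094 and 2041 in the cKO samples (log2 change -0.07 ± 0.04 SE, adjusted p = 0.315, edgeR), with overlapping groups. Ntn4 went from 63.8% to 64.8% of netrin reads per kb of the longest coding transcript in control to 69.1% to 69.9% in cKO. Ntn1 went from 31.4% to 32.4% to 27.1% to 27.7%. Ntn3 had 60, 55 and 54 counts against 48, 53 and 56 (log2 change 0.02). Ntn5 had 52, 71 and 62 against 39, 51 and 53 (log2 change -0.24), and the groups of both genes overlapped. Reads of Ntn5 are uncertain, since 16.0% of the 75-base windows of its transcripts occur in another gene, mostly Sec1.

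Unc5 receptors, which mediate repulsion from netrins, showed upregulation of Unc5b and Unc5c. Unc5b (ENSMUSG00000020099, chromosome 10, 60762593 to 60831581), also known from the endothelium, had counts of 7625, 8819 and 8158 in the controls and 8566, 12020 and 10545 in the cKO samples. It rose from 136 ± 3.28 to 190 ± 12.3 CPM (SD, n = 3 each), a log2 change of 0.46 ± 0.04 (SE, adjusted p = 9.39e-07, edgeR). Unc5c (ENSMUSG00000059921, chromosome 3, 141465216 to 141834924), best known from the developing cerebellum, had counts of 141, 130 and 138 in the controls and 233, 284 and 289 in the cKO samples. Unc5c rose by 1.11 ± 0.10 on the log2 scale (SE, adjusted p = 1.2e-06, edgeR). Control and cKO samples were well apart for both genes. Unc5a had counts of 199, 230 and 204 in the controls and 159, 202 and 181 in the cKO samples (log2 change -0.09, adjusted p = 0.563, edgeR), with overlapping groups. Unc5d had 1, 1 and 0 against 5, 0 and 2 counts. Although Unc5c changed more in fold, Unc5b held at least 95.3% of Unc5 reads per kb of the longest coding transcript in every sample. Per kb of all annotated exons, Unc5c held 0.462% to 0.579% in the controls and 0.748% to 0.866% in the cKO samples.

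Of the ephrins, both abundant class B members were upregulated and the class A member Efna1 was downregulated. Efnb2, a transmembrane ligand known as a marker of arteries, had counts of 3372, 4097 and 4051 in the controls and 3799, 4851 and 4156 in the cKO samples. It rose from 63.4 ± 3.36 to 78.6 ± 3.83 CPM (SD, n = 3 each; log2 change 0.28 ± 0.04 SE, adjusted p = 0.000283, edgeR). Efnb1, its close relative on the X chromosome, had counts of 2594, 3129 and 2968 in the controls and 2560, 3318 and 2950 in the cKO samples. Its level went from 47.9 ± 1.82 to 54.1 ± 1.74 CPM. Efnb1 rose by 0.15 ± 0.04 on the log2 scale (SE, adjusted p = 0.0134, edgeR). Neither gene overlapped between the groups in CPM, but the rise of Efnb1 was small. Without control replicate 1, Efnb1 did not pass the test (adjusted p = 0.0875, range over all alternatives 0.00586 to 0.0875). Efnb3, the third transmembrane ligand, was rare at 25 to 40 counts and not called (log2 change 0.41 ± 0.23 SE), with every cKO sample higher in CPM. Efna1, a ligand of EphA receptors held in the membrane by a lipid anchor, had counts of 122, 136 and 145 in the controls and 68, 99 and 96 in the cKO samples. Efna1 fell by 0.49 ± 0.12 on the log2 scale (SE, adjusted p = 0.0134, edgeR). All cKO samples had a lower CPM than all controls. The call was lost without control replicate 3 (adjusted p = 0.0647) and with DESeq2 (adjusted p = 0.0568), within a range of 0.00166 to 0.0647 over all alternatives. Efna2, Efna3, Efna4 and Efna5 were not called. They had 33 to 431 counts per sample and log2 changes from -0.26 (Efna2) to 0.27 (Efna5). Of these, Efna5 alone had no overlap in CPM. Efna2 did pass the test without control replicate 1 (adjusted p = 0.0497), without cKO replicate 3 (adjusted p = 0.0179) and with no filter on low counts (adjusted p = 0.0215, all edgeR), within a range of 0.0179 to 0.267 over all alternatives. Summed over each class, ephrin-B reads were at 112 ± 5.02 and 133 ± 5.51 CPM in control and cKO, and ephrin-A reads at 14.5 ± 0.826 and 13.5 ± 1.09 CPM (SD, n = 3 each).

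Eph receptors included no upregulated gene, and the ephrin-B receptors Ephb2 and Ephb3 were downregulated. Ephb3 (ENSMUSG00000005958, chromosome 16, 21204755 to 21223305), a receptor tyrosine kinase for ephrin-B ligands, had counts of 2560, 2833 and 2794 in the controls and 1894, 2172 and 2201 in the cKO samples. Ephb3 fell by 0.25 ± 0.04 on the log2 scale (SE, adjusted p = 0.00043, edgeR). Ephb2, which binds the same ligands, had counts of 7457, 8474 and 8404 in the controls and 5916, 7329 and 7080 in the cKO samples. It fell from 134 ± 2.53 to 125 ± 1.84 CPM (SD, n = 3 each; log2 change -0.13 ± 0.03 SE, adjusted p = 0.0095, edgeR). Both were lower in every cKO sample, and the small change of Ephb2 did not pass the test without control replicate 3 (adjusted p = 0.0641, range over all alternatives 0.00237 to 0.0641). Ephb4, a receptor of ephrin-B2 known from veins, had counts of 1383, 1536 and 1463 in the controls and 1227, 1466 and 1510 in the cKO samples. Its CPM was higher in each cKO sample, but the log2 change of 0.07 ± 0.05 (SE, adjusted p = 0.364, edgeR) did not pass the test. The most abundant Eph receptor per length in both groups, Epha2, had counts of 5314, 6048 and 5742 in the controls and 4565, 5792 and 5284 in the cKO samples, with 94.3 ± 1.04 and 95.9 ± 1.75 CPM (SD, n = 3 each). Its groups overlapped and its fitted levels differed by less than the standard error of 0.03 on the log2 scale. Epha1, the founding member of the Eph family, had 866, 1038 and 946 counts against 772, 1045 and 894 (log2 change 0.06, adjusted p = 0.572, edgeR), and overlapped. Epha3, Epha4, Epha7, Epha10, Ephb1 and Ephb6 were not called, with 4 to 643 counts per sample and log2 changes from -0.04 (Ephb1) to 0.46 (Epha10, standard error 0.52). Of these, Epha4 alone had no overlap in CPM, with every cKO sample higher. Within the class B system, the ligands Efnb1 and Efnb2 were thus called as upregulated and the receptors Ephb2 and Ephb3 as downregulated. Efnb3, Ephb1, Ephb4 and Ephb6 were not called. The calls of Efnb1 and Ephb2 each depended on 1 control sample, as given above.

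Class 3 semaphorins, the secreted ones, moved apart: Sema3d was downregulated, Sema3c and Sema3b were upregulated, and Sema3a and Sema3e were not called. Sema3d (ENSMUSG00000040254, chromosome 5, 12383385 to 12588948), known from vessel and heart development, had counts of 4555, 5344 and 5232 in the controls and 3297, 3706 and 3499 in the cKO samples. Its level fell from 83.4 ± 2.49 to 64.7 ± 3.52 CPM (SD, n = 3 each), a log2 change of -0.39 ± 0.04 (SE, adjusted p = 8.3e-06, edgeR). It had the smallest adjusted p of the 5 downregulated guidance genes, and its groups did not overlap even in raw counts. Sema3c, known from the outflow tract of the heart, had counts of 1657, 1819 and 1766 in the controls and 1694, 2098 and 1953 in the cKO samples. It rose from 28.9 ± 0.323 to 35.3 ± 0.252 CPM (log2 change 0.26 ± 0.04 SE, adjusted p = 0.000154, edgeR). Sema3b, a secreted semaphorin known as a candidate tumour suppressor, had counts of 1285, 1356 and 1250 in the controls and 1175, 1389 and 1417 in the cKO samples. Sema3b rose by 0.16 ± 0.05 on the log2 scale (SE, adjusted p = 0.0431, edgeR). The call of Sema3b was lost without control replicate 2 (adjusted p = 0.133), control replicate 3 (0.202), cKO replicate 1 (0.0529) or cKO replicate 3 (0.178), and with DESeq2 (0.0985), within a range of 0.0195 to 0.202 over all alternatives. Sema3a, a repellent made by satellite cells and known for its effect on motor nerve endings, had counts of 5899, 6108 and 6179 in the controls and 4549, 6652 and 5644 in the cKO samples. The groups overlapped, with a log2 change of 0.01 ± 0.05 (SE). Sema3e, the ligand that binds plexin D1 directly, had 4647, 5044 and 5072 against 3923, 5016 and 4626 (log2 change 0.01 ± 0.03 SE), and overlapped as well. Sema3f and Sema3g were low, at 59 to 95 counts, and not called. In the summed reads of the class per kb of the longest coding transcript, Sema3d went from 23.3% to 25.0% in control to 17.9% to 20.5% in cKO. Sema3c went from 9.61% to 9.78% to 11.7% to 12.1%.

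Among the membrane-bound semaphorins of classes 4 to 7, Sema4d and Sema5a were upregulated. Sema4d, the ligand of plexin B1 and long known from lymphocytes, had counts of 260, 305 and 281 in the controls and 304, 367 and 318 in the cKO samples. Sema4d rose by 0.36 ± 0.08 on the log2 scale (SE, adjusted p = 0.00438, edgeR). Sema5a, a transmembrane semaphorin with thrombospondin repeats, had counts of 93, 128 and 98 in the controls and 109, 143 and 132 in the cKO samples. Sema5a rose by 0.40 ± 0.13 on the log2 scale (SE, adjusted p = 0.0421, edgeR). Neither overlapped in CPM. The call of Sema5a was lost without control replicate 1 (adjusted p = 0.141), control replicate 3 (0.164), cKO replicate 2 (0.0971) or cKO replicate 3 (0.107), and with DESeq2 (0.163), within a range of 0.0155 to 0.164 over all alternatives. Sema4b had 907, 1012 and 929 counts against 751, 932 and 861, and Sema4c, which binds plexin B2, had 1976, 2119 and 1997 against 1509, 1973 and 1866. Their log2 changes were -0.03 and -0.06, and the groups of both overlapped. Sema6a had counts of 2079, 2098 and 2112 in the controls and 1419, 2069 and 1738 in the cKO samples. Its log2 change was -0.15 ± 0.06 (SE, adjusted p = 0.0951, edgeR). It passed the test without cKO replicate 2 (-0.22, adjusted p = 0.00683) and with no filter on low counts (adjusted p = 0.0153), within a range of 0.00683 to 0.319 over all alternatives. The other class 6 members are transmembrane ligands of the A plexins. Sema6b had 1567, 1820 and 1746 counts against 1381, 1864 and 1680. Sema6c had 912, 928 and 820 against 834, 923 and 932, and Sema6d had 1534, 1728 and 1649 against 1194, 1663 and 1484. None of these 3 was called (log2 changes 0.07, 0.15 and -0.05), and Sema6b was the one whose groups did not overlap. Sema7a, the lipid-anchored member and a ligand of plexin C1 and integrins, had 2889, 3280 and 3021 counts against 2183, 3074 and 2645. Its log2 change of -0.09 ± 0.04 (SE, adjusted p = 0.19, edgeR) became -0.15 without cKO replicate 2 (adjusted p = 0.0177, range over all alternatives 0.0177 to 0.429). Sema4a, Sema4f and Sema4g were low, at 20 to 85 counts, with log2 changes from -0.02 (Sema4g) to 0.18 (Sema4a).

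Plexins, the semaphorin receptors, included some of the most abundant guidance genes, and only Plxna2 and Plxnb2 were called. Plxna2, a receptor for class 3 and class 6 semaphorins, had counts of 5263, 5687 and 5312 in the controls and 3521, 4688 and 4155 in the cKO samples. Plxna2 fell from 89.8 ± 3.28 to 75.7 ± 3.11 CPM (SD, n = 3 each; log2 change -0.27 ± 0.04 SE, adjusted p = 0.000118, edgeR). All cKO samples lay below all control samples. Plxnb2, a receptor for class 4 semaphorins, had counts of 9359, 10535 and 10081 in the controls and 8444, 10856 and 10006 in the cKO samples. Its level went from 165 ± 1.09 to 180 ± 3.72 CPM. Plxnb2 rose by 0.095 ± 0.03 on the log2 scale (SE, adjusted p = 0.0379, edgeR). This smallest of the called changes was lost without control replicate 1 (adjusted p = 0.115), control replicate 2 (0.123), control replicate 3 (0.143), cKO replicate 2 (0.0938) or cKO replicate 3 (0.117). It was also lost with DESeq2 (0.0593), with the likelihood-ratio test (0.0503) and with no filter (0.0751), within a range of 0.0115 to 0.143 over all alternatives. Plxna1, which shares ligands with Plxna2, had 10845, 10967 and 10323 counts against 7102, 11340 and 10306, with cKO replicate 1 the lowest and overlapping groups (log2 change -0.05 ± 0.07 SE). Plxna3 had 1166, 1285 and 1214 counts against 875, 1246 and 1049 (log2 change -0.08). Plxnb1, the receptor of Sema4d, had 1551, 1695 and 1632 counts against 1303, 1832 and 1639 (log2 change 0.09, adjusted p = 0.219). Plxnb1 passed the test without cKO replicate 1 (0.14, adjusted p = 0.0344, edgeR, range over all alternatives 0.0344 to 0.583). Plxnb3, a receptor of Sema5a, had 746, 749 and 658 against 550, 719 and 638 counts (log2 change -0.05). Plxnc1, the receptor of Sema7a, had 1029, 1191 and 1048 against 816, 1097 and 961 (log2 change -0.06). Plxnd1, the receptor of Sema3e known from vessels, had 3792, 4269 and 3944 counts against 2986, 4069 and 3359. The log2 change of -0.08 ± 0.04 (SE, adjusted p = 0.265, edgeR) became -0.14 without cKO replicate 2 (adjusted p = 0.0179, range over all alternatives 0.0179 to 0.625). The CPM of Plxna3, Plxnb1, Plxnb3, Plxnc1 and Plxnd1 overlapped between the groups. Plxna4 was rare, at 125 to 168 counts, and not called (log2 change 0.22, adjusted p = 0.253), with every cKO sample above every control sample.

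Levels of different genes were compared per kb of transcript. In control samples the same 4 receptors led on either length used, namely Plxnb2, Epha2, Unc5b and Plxna1, with 25.5, 24.1, 23.1 and 19.7 CPM per kb of the longest coding transcript. Of these 4, the order of the first 3 in control depended on the length. In cKO, Unc5b was first on both lengths, at 32.4 CPM per kb of the longest coding transcript, ahead of Plxnb2 at 27.7. The genes with the largest fold changes were low by comparison. Slit2 went from 0.325 to 0.791, Slit3 from 0.650 to 1.57 and Unc5c from 0.235 to 0.513 CPM per kb of the longest coding transcript. Ligand levels were led by Sema3a, Sema7a and Efnb1 on this length in control. On the length of all exons Sema7a, Efnb1 and Ntn4 led instead, and Sema3a was also below Sema3d, Efnb2, Sema3e and Sema4c. Over all 66 genes the summed CPM was 1892 ± 20.0 for the controls and 1963 ± 79.7 for the cKO samples (SD, n = 3).

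**Figure D4:**
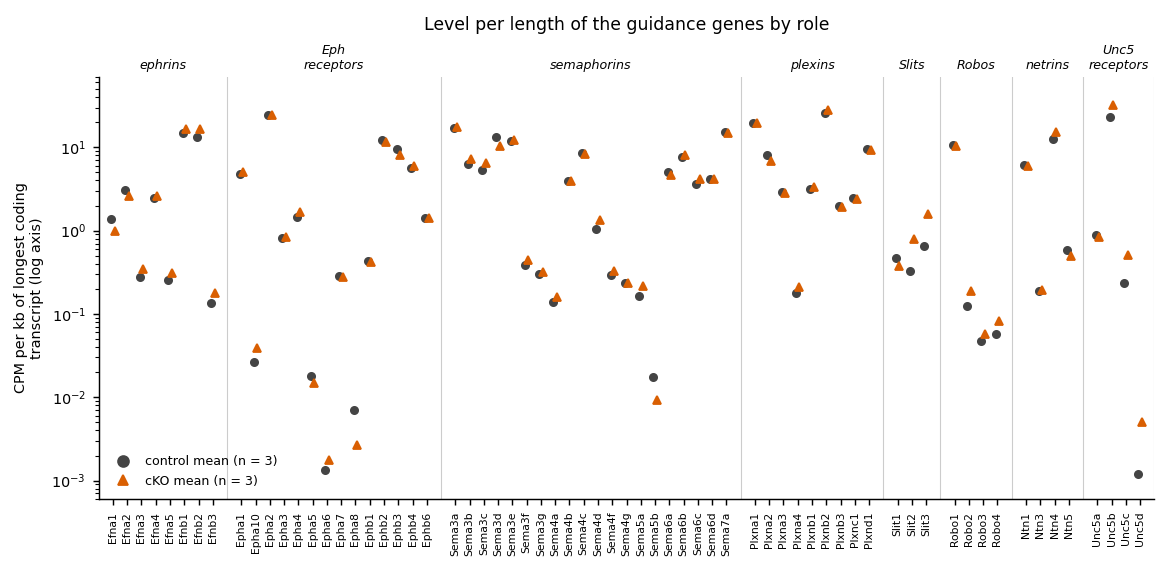
Mean level of all 66 guidance genes (y axis, CPM per kb of the longest coding transcript, log axis) in control (circles, n = 3) and cKO (triangles, n = 3), by family. Plxnb2, Epha2, Unc5b and Plxna1 are highest, and Slit2, Slit3 and Unc5c, whose points are farthest apart among genes that were called, lie below 2 CPM per kb.

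Members that lie within 1 Mb of each other form 8 groups on the chromosomes, and 5 of these groups hold a called gene, each of them a single one. Sema3d, Sema3a and Sema3e lie on the same strand of chromosome 5 between 12383385 and 14256689, and of them only Sema3d was called, as downregulated. Sema3c, which was upregulated, follows on that strand at 17574281 to 17730268. Robo1 and Robo2 lie on opposite strands of chromosome 16 between 72308306 and 74411825, and only Robo2 was called. Efna1, Efna3 and Efna4, with Sema4a, lie on the minus strand of chromosome 3 between 88435959 and 89338028, and only Efna1 was called. Sema3b and Sema3f are beside each other on chromosome 9 (107597674 to 107710475), where Sema3b was called and Sema3f was not. Ephb2 lies beside Epha8, which was not tested, on chromosome 4 (136647539 to 136956816). Upregulated members spanned 11.6 to 587 kb of the genome (median 108 kb), downregulated members 9.41 to 206 kb (median 188 kb), and members not called 4.64 to 738 kb (median 28.1 kb). These spans overlap, and the medians are a description with no test.

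Co-receptors and intracellular partners of the same pathways were taken from a list of 70 genes, of which 66 could be tested. In cKO, 15 were upregulated (22.7%) and 7 downregulated (10.6%), beside 12.8% and 8.5% of the protein-coding genes tested, with a median log2 change of 0.04. Scaled by total counts alone the split was 17 and 2. The 7 downregulated became 2 without control replicate 2 or control replicate 3, and 3 without control replicate 1 or cKO replicate 3. Nrp2, a neuropilin that binds class 3 semaphorins together with A plexins, had counts of 2044, 2292 and 2229 in the controls and 2539, 3511 and 3057 in the cKO samples. Nrp2 rose by 0.60 ± 0.04 on the log2 scale (SE, adjusted p = 9.07e-08, edgeR). Nrp1, the co-receptor of Sema3a, had 3242, 3703 and 3606 counts against 3101, 4122 and 3565 (log2 change 0.16 ± 0.04 SE, adjusted p = 0.00754, edgeR). Both were higher in every cKO sample in CPM. Neo1, neogenin, a receptor of netrins and RGM proteins, had 2976, 3357 and 3371 counts against 2563, 3614 and 3277, and was not called (log2 change 0.09, adjusted p = 0.223, edgeR). It was called without cKO replicate 1 (0.14, adjusted p = 0.0154, range over all alternatives 0.0154 to 0.579). Dcc, the attractive netrin receptor, had 0 or 1 count in each sample. The largest rise was that of Ntng2, a membrane-anchored netrin-G, with 12, 14 and 10 counts against 25, 32 and 27 (log2 change 1.34 ± 0.27 SE). Next was Nrcam, an adhesion molecule of the L1 family, with 635, 714 and 735 against 991, 1271 and 1142 (log2 change 0.84 ± 0.05 SE). These were followed by Chn2, a GTPase-activating protein for Rac, with 140, 136 and 169 counts against 179, 268 and 222 (log2 change 0.71). The tyrosine kinase gene Fes had counts of 361, 407 and 375 against 446, 660 and 567 (log2 change 0.67). Dpysl4, a collapsin response mediator, had 38, 40 and 47 against 54, 70 and 53 (log2 change 0.63). These 5 did not overlap between groups. The call of Dpysl4 was lost without control replicate 1 (adjusted p = 0.0798), control replicate 2 (0.108), cKO replicate 1 (0.0546) or cKO replicate 2 (0.0886), and with DESeq2 (0.125), within a range of 0.00574 to 0.125 over all alternatives.

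Partner genes that fell included Ngef, an exchange factor that binds EphA receptors, with 223, 277 and 284 counts against 151, 178 and 180 (log2 change -0.49 ± 0.09 SE, adjusted p = 0.00176, edgeR). Ngef was the only one of the 5 largest falls whose call was kept whichever sample was left out. Adam10, a protease that cuts ephrins from the cell surface, had 4690, 4660 and 4800 counts against 3090, 4331 and 4099 (log2 change -0.18, adjusted p = 0.0284, edgeR). The call was lost without control replicate 1 (0.137), control replicate 3 (0.0921) or cKO replicate 1 (0.0582), within a range of 7.7e-05 to 0.137 over all alternatives. Gpc1, a heparan sulphate proteoglycan that binds Slits, had 31995, 35563 and 31976 counts against 24923, 28037 and 27538 (log2 change -0.17, adjusted p = 0.00822, edgeR). Without control replicate 2 the adjusted p was 0.0546, the highest over all alternatives. Of the transcript windows of Gpc1, 17.5% also occur in Ankmy1. Arhgap39, a GTPase-activating protein that binds Robo receptors, had 1653, 1830 and 1725 counts against 1218, 1612 and 1507 (log2 change -0.14, adjusted p = 0.0375, edgeR). The call held without cKO replicate 2 and not without the others, where the adjusted p was 0.13, 0.122 and 0.064 without control replicates 1, 2 and 3 and 0.0907 and 0.0563 without cKO replicates 1 and 3 (range over all alternatives 0.0322 to 0.13). Pak1, a kinase downstream of Rac and Cdc42, had 7638, 9084 and 8744 counts against 6050, 8007 and 7348 (log2 change -0.12, adjusted p = 0.0255, edgeR). The CPM of Pak1 overlapped between the groups. The call was lost without control replicate 2 (0.134), control replicate 3 (0.115), cKO replicate 1 (0.0516) or cKO replicate 3 (0.0607), within a range of 0.00451 to 0.134 over all alternatives.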

How the data were processed

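RNA from 6 samples of sorted and cultured satellite cells was sequenced as single-end reads of 75 bp after removal of ribosomal RNA from 400 ng of total RNA. Per the submitters' processing notes and the study's methods, the authors aligned reads to mm10 with Bowtie2 2.3.4.2, an aligner with no spliced alignment (reads lost across exon junctions were not measured here), and counted them per gene with featureCounts 1.6.3. The deposited counts per gene are raw. The strand setting and the treatment of reads that match several places are not given in the sources used here, so genes that overlap or share sequence are uncertain. Further deposited tables were not used, namely one of normalized counts, and the authors' own comparison (DESeq2 2.11.40.6), which holds fold changes, standard errors, Wald statistics and p-values.

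GENCODE M21, on the same build, held each of the 55536 gene identifiers. Totals ran from 47944477 to 63323577 counts per sample. Genes were filtered with filterByExpr, scaled by TMM and tested with the quasi-likelihood test of edgeR 4.0.16 in R 4.3.3, with genotype as the only term and Benjamini-Hochberg adjustment over the 22404 genes tested, and called at an adjusted p under 0.05. Log2 changes are of cKO over control. CPM values are counts per 1000000 counted reads of the sample, and CPM per kb divides by the longest coding transcript or by all exons. The steps were run on simulated data with known changes, which were larger than those of most called guidance genes. That run therefore cannot say how well smaller changes are recovered. Alternatives were DESeq2 1.42.0, the likelihood-ratio test, RLE, upper-quartile and total-count scaling, no filter, a minimum mean of 1 CPM, a threshold of 0.01, the replicate number as a block, and leaving out each sample. Shared sequence was measured as exact windows of 75 bases of the transcripts. Promoters came from RefSeq (GRCm38.p6).

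The replicate numbers of the labels do not say what they share. For each gene, the log CPM of a sample was taken as its deviation from the mean of its own group. Between same-numbered control and cKO samples, the correlations of these deviations were -0.0129, -0.00449 and -0.0145, so the samples were not treated as paired. The guidance genes, the partner list, the marker lists and the alternatives were chosen with earlier results of these data known. Given with the count in every sample are each called member, each with a mean of at least 10 CPM and each of a family of up to 4 members; the rest are given by range. Of the partners, Nrp1, Nrp2, Dcc and Neo1 and the 5 largest called rises and falls are named. Of the markers, Ptprc, Ly6a, Acta2, Stmn2, Col1a2 and Col3a1 were added after their values were seen. Tables were made with numpy 2.4.6 and pandas 2.3.3 in Python 3.11.15, and figures with matplotlib 3.10.9.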

Additional observations from a re-analysis of the deposited data

How the results depend on the processing

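No called gene named in the text changed direction under the alternatives run. The log2 change of 12 guidance genes that were not called did change sign under at least 1 alternative: Efna4, Epha2, Epha3, Epha7, Ephb6, Ntn3, Plxna1, Plxnb3, Sema3a (from -0.06 to 0.06), Sema3e (from -0.01 to 0.03), Sema3g and Sema4g. The number of upregulated guidance genes (13) lay between 9 and 13 over all of them, and between 10 and 13 when 1 sample was left out. The number of downregulated ones (5) lay between 3 (without control replicate 3) and 9 (without cKO replicate 2) when 1 sample was left out, and between 4 and 7 otherwise. The median log2 fold change of the guidance genes (0.046) ran from 0.028 to 0.077 with 1 sample left out and from 0.016 (a minimum mean of 1 CPM) to 0.071 otherwise. Downregulated partner genes (7) numbered 2 with total counts alone, 2 at an adjusted p under 0.01, 4 with the replicate block, and 2 to 7 with 1 sample left out. Upregulated partner genes (15) ran from 11 to 17. Hira had a log2 fold change of -0.433 at an adjusted p of 0.0237, which does not pass a threshold of 0.01, and ran from -0.524 to -0.286 with 1 sample left out (edgeR). The cause of these differences was not tested. With the replicate number as a block, 10 guidance genes were upregulated and 5 downregulated, the calls of Sema3b (adjusted p = 0.0622), Sema5a (0.0575) and Plxnb2 (0.0681) were lost, and Hira had -0.438 (0.0465), all edgeR; the labels do not say what the numbers share. With DESeq2, 10 were upregulated and 4 downregulated. Counted per gene and alternative, guidance genes kept their side of the threshold 865 times, lost a call 31 times and gained one 10 times. Counting error limits what can be seen for the rarest genes, such as Robo3, Robo4 and Epha10 at 4 to 24 counts.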
